A study of Homo sapiens with 3 samples.

Results

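The p300/CBP peaks around 10 genes of glucose uptake and glycolysis were examined in MDA-MB-231 cells with and without knockdown of Fra-1. The genes were SLC2A1 and SLC2A3, HK2 and HK1, PFKP and PFKFB3, PGK1, ENO1, PKM and LDHA. A peak was given to a gene when its centre lay within 100 kb of the gene's transcription start site (TSS), which yielded 103 of 82901 peaks in control cells and 61 of 39320 peaks after knockdown. HK2 was chosen by the widths in these same lists: its wide peaks, those of at least 250 bp, go from none in control cells to several after knockdown. The HK2 values are therefore a description, and the question was whether the other 9 genes had the same pattern.

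MDA-MB-231 is an established human line of triple-negative breast cancer in which the AP-1 subunit Fra-1, the product of FOSL1, is abundant. Transfection was done with either a negative control siRNA (siCTL) or 3 mixed siRNAs to Fra-1 (siFra-1), at 4.5 nM in each case, and fixation of 7 min followed at 72 h. Chromatin was then precipitated with an antibody to the acetyltransferases p300 and CBP and sequenced, after pooling of replicate precipitations into 1 library per condition. The series holds 3 samples, and its input DNA was not analysed here. There were thus no replicates and no test across conditions, and each interval below is an exact 95% Clopper-Pearson interval that covers counting error only and speaks for these libraries, not for the conditions. Only positions are listed, without heights or read numbers, so that read depth is unknown and the level of Fra-1 cannot be read from them.

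Glycolysis turns glucose into pyruvate and, in many tumour cells, on to lactate even where oxygen is present. Glucose enters through facilitative transporters, is trapped in the cell by hexokinases, and is committed to the pathway by phosphofructokinase before the later enzymes recover ATP. HK2 is the hexokinase isoform that many cancers produce in excess, whereas HK1 is made in most tissues. p300 and CBP are coactivators that acetylate histones and sit at active enhancers and promoters. AP-1 dimers of a Fos and a Jun protein, or of Jun proteins alone, bind the sequence TGAGTCA or TGACTCA.

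The 6 wide siFra-1 peaks of HK2 carry the pattern for which the gene was chosen, and their sequences are shown with hg19 plus-strand coordinates, which is also the coding strand of HK2. Where a peak was longer than 300 bp, its central 300 bases are given. Capitals mark matches on either strand to 5 short motifs: TGAGTCA or TGACTCA (AP-1), GGAATG (TEAD), TGTGGTT (RUNX), the hypoxia-response core ACGTG, and GGGCGG (SP/KLF). A match on the minus strand is printed as its reverse complement, such as CACGT for ACGTG.
HK2 intron 1, chr2:75070427-75070726: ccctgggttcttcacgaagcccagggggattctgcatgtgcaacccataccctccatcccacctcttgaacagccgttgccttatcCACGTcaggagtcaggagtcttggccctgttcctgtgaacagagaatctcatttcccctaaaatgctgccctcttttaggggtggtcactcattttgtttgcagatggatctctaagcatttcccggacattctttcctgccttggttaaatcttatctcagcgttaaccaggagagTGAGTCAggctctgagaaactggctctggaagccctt
HK2 intron 1, chr2:75072552-75072801: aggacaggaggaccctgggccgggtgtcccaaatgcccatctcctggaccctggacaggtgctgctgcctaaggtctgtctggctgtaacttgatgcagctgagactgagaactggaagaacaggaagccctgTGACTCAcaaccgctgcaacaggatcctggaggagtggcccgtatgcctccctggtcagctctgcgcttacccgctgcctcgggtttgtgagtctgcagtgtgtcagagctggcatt
HK2 intron 2, chr2:75083427-75083726: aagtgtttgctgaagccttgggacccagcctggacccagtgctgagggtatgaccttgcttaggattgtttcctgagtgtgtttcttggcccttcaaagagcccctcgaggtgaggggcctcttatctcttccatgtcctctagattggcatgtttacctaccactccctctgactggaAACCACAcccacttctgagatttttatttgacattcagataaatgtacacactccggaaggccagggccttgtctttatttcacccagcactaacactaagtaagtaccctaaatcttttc
HK2 intron 2, chr2:75092502-75092801: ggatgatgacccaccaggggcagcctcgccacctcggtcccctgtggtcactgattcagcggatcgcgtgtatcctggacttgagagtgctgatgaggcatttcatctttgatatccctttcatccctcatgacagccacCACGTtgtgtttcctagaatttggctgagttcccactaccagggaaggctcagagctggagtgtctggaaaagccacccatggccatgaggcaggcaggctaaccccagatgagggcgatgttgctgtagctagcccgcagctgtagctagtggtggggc
HK2 intron 2, chr2:75093802-75094101: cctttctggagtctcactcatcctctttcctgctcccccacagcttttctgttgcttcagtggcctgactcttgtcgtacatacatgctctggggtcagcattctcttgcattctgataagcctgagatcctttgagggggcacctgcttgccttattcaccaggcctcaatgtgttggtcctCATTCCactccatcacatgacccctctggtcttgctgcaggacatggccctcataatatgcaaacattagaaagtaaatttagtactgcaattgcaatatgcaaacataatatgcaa
HK2 intron 3, chr2:75095152-75095451: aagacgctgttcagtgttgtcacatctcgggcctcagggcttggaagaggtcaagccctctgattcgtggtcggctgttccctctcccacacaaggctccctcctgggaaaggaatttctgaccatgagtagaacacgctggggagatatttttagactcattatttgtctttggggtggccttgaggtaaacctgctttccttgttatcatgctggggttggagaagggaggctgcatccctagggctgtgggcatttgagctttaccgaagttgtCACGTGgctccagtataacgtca

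The 6 sequences held no motif in common. An AP-1 motif lay in the printed bases of 2 of them, at 9.32 and 11.4 kb from the TSS, and the core ACGTG lay in 3, at 9.32, 31.4 and 34.0 kb. In the last of these, both strands matched in the palindrome CACGTG, the E-box. The RUNX motif lay in the peak at 22.3 kb and the TEAD motif in that at 32.7 kb, with 1 match each. For comparison, of all 7100 sites with a wide peak in either list, 30.2% held AP-1, 36.9% TEAD, 14.9% RUNX, 16.1% ACGTG and 4.44% the E-box in their central 300 bases.

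A further 3 sequences are shown because the comparison turns on them: the widest siFra-1 peak of the 9 other genes that has no siCTL overlap, in HK1; the site upstream of PKM, which was chosen after its values were seen because it holds AP-1 motifs; and the bases before the HK2 start site, where neither list has a peak. All are hg19 plus strand, with the same motifs in capitals, and the HK1 and PKM sequences are the central 300 and 200 bases of longer peaks.
HK1 intron, chr10:71120427-71120726: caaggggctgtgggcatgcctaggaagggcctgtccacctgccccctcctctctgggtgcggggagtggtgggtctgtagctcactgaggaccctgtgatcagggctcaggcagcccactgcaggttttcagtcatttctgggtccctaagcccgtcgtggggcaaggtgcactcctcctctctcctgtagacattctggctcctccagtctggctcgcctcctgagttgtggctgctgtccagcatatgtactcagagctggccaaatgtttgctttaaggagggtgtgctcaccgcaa
upstream of PKM, chr15:72529877-72530076: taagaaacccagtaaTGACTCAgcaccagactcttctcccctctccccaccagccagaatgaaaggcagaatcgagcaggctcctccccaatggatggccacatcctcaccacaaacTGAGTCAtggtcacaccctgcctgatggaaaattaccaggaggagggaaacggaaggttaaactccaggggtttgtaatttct
before the HK2 start, chr2:75061054-75061253: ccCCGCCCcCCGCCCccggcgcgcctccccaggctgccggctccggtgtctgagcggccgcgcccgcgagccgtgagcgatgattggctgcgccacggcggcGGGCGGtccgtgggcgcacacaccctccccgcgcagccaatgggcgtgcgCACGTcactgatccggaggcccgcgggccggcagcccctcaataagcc

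The HK1 sequence held none of the 5 motifs, and the PKM sequence held 2 AP-1 motifs, with a TEAD motif in the same peak outside the bases shown. The 200 bases before the HK2 start were 78.5% G and C, with 3 matches to the SP/KLF box and 1 to ACGTG. Among the 200-base stretches before 20140 protein-coding starts, 46.5% held the SP/KLF box and 16.7% held ACGTG. These letters are matches to a word and do not show that a factor was bound.

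Over the whole lists, siFra-1 had fewer peaks than siCTL but more wide ones, and each gene has to be read against this. Of the peaks of both lists together, 32.2% (31.9% to 32.4%) came from siFra-1, and of the wide ones 62.1% (61.1% to 63.1%) did, with 3655 in siCTL and 5989 in siFra-1. Within 100 kb of the 20162 protein-coding start sites, 31.7% of all peaks and 61.4% of wide peaks came from siFra-1. What part library quality, scaling or the fixed calling threshold has in these shares cannot be told apart from the siRNA.

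HK2 (ENSG00000159399, chr2:75061254-75120486, plus strand, 18 exons) phosphorylates glucose to glucose 6-phosphate and can attach to mitochondria. Around its TSS there were 8 siCTL and 9 siFra-1 peaks, so that 52.9% (27.8% to 77.0%) of its peaks came from siFra-1. The number of peaks was thus nearly level, whereas siFra-1 had fewer peaks than siCTL at 81.9% of protein-coding genes and more at 7.33%. Their widths differed much more than their number. Of the siCTL peaks, 7 were 100 bp wide, the smallest width in the lists, and 1 was 200 bp wide. Of the siFra-1 peaks, 2 were 100 bp, 1 was 150 bp and 6 were between 250 and 450 bp. The peaks covered 900 bp in siCTL and 2500 bp in siFra-1, a ratio of 2.78 against 0.626 over all protein-coding genes. The 6 wide peaks for which HK2 was chosen enter both the number of peaks and the covered length. Neither comparison with all genes is therefore separate from the choice.

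All 6 wide siFra-1 peaks lay inside HK2, in its first 3 introns, over a stretch of 25.1 kb. In intron 1, a 450 bp siFra-1 peak at 9.32 kb (chr2:75070352-75070801) contained a 100 bp siCTL peak (chr2:75070502-75070601). The next, 250 bp wide at 11.4 kb (chr2:75072552-75072801), also contained a siCTL peak of 100 bp (chr2:75072652-75072751). In intron 2, a 450 bp siFra-1 peak at 22.3 kb (chr2:75083352-75083801) contained the third siCTL peak of 100 bp (chr2:75083452-75083551). At these 3 sites both libraries therefore had a peak, and the siFra-1 peak was the wider by 350, 150 and 350 bp.

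The other 3 wide peaks formed a cluster at the end of intron 2 and the beginning of intron 3. They were 300 bp at 31.4 kb (chr2:75092502-75092801), 300 bp at 32.7 kb (chr2:75093802-75094101) and 400 bp at 34.0 kb (chr2:75095102-75095501). None overlapped a siCTL peak, but a siCTL peak of 100 bp (chr2:75093602-75093701) lay among them, 100 bp from the second. The distance from the first and the last to the nearest siCTL peak was 800 and 1400 bp. A siFra-1 peak of 150 bp (chr2:75093402-75093551) lay in the same cluster, 50 bp from that siCTL peak. The lists thus had separate but adjoining calls in this cluster, and a site missing from a list may have fallen just under the calling threshold.

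**Figure D1:**
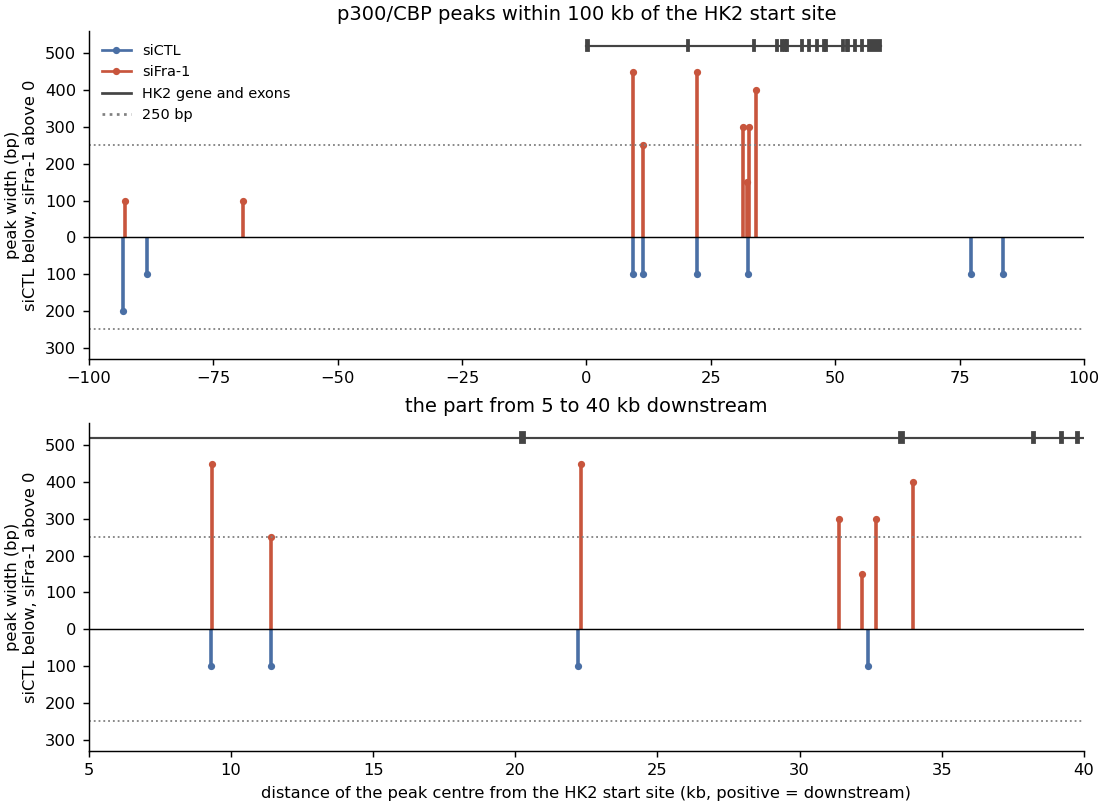
p300/CBP peaks within 100 kb of the HK2 start site, with distance from the start site in kb on the x axis and peak width in bp on the y axis (siFra-1 above 0 in red, siCTL below 0 in blue), the HK2 gene and its exons drawn on top, and 250 bp as a dotted line. The lower panel enlarges the part from 5 to 40 kb, where the 6 siFra-1 peaks of 250 to 450 bp stand above 4 siCTL peaks of 100 bp.

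Outside the gene, the HK2 window held 4 siCTL and 2 siFra-1 peaks, and none was wide. The widest was a siCTL peak of 200 bp 93.2 kb upstream (chr2:74968002-74968201), with a 100 bp siFra-1 peak 250 bp away. The nearest peak to the start site was the first intronic one, 9.3 kb away in siCTL and 9.32 kb away in siFra-1, so that neither list had a peak at the HK2 promoter. Of the 8 siCTL peaks 3 were overlapped by siFra-1 peaks, and these were 3 of the 7 that were 100 bp wide. In the whole siCTL list, 3.79% of 100 bp peaks were overlapped. All 3 overlaps at HK2 were with wide siFra-1 peaks for which the gene was chosen. This comparison is therefore not separate from the choice either. Of siFra-1 peaks of at least 250 bp that had a siCTL overlap, 16.6% had a widest siCTL partner of 100 bp, as did all 3 at HK2. HK2 was chosen for having no wide siCTL peak, so a wide partner was excluded there. The 16.6% is over peaks with partners of any width. None of the 3 narrower siFra-1 peaks at HK2 was overlapped, and in the whole list 6.56% of those of 100 bp and 28.1% of those of 150 or 200 bp were.

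The pattern at HK2 was uncommon among protein-coding genes, as a gene selected for it must be. A change from 0 siCTL to at least 3 siFra-1 wide peaks was found at 0.739% of genes (149 of 20162), and from 0 to at least 6 at 0.0248% (5 genes, HK2 included). A rise of at least 6, from any siCTL number, was found at 0.0744%. Among the others, PODN, SLC1A7 and CPT2, named after their values were seen, are neighbours on chromosome 1 and share peaks. Wide siFra-1 peaks also come in groups elsewhere. Of the 5989 wide siFra-1 peaks, 4.94% began a stretch of the same length as that at HK2 that held at least 6 of them, and 0.367% began such a stretch with no wide siCTL peak in it.

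None of the other 9 genes went from no wide siCTL peak to several. Wide peaks were more numerous in siFra-1 at 4 of them (HK1, SLC2A1, PFKP and PKM), by 1 peak each, level at 1 (ENO1), and absent from both lists at 4 (SLC2A3, PFKFB3, PGK1 and LDHA). Over all protein-coding genes 15.7% had more wide siFra-1 peaks and 7.28% had fewer. A wide peak in either list was found at 31.8% of all genes and at 5 of these 9. Among genes with such a peak 49.5% had more in siFra-1 and 22.9% had fewer, beside 4 and 0 of these 5. Summed over the 9 genes, wide peaks numbered 5 in siCTL and 9 in siFra-1, a siFra-1 share of 64.3% (35.1% to 87.2%), close to the 61.4% of all protein-coding genes. For peaks of any width the 9 genes had 95 siCTL and 52 siFra-1 peaks, a share of 35.4% (27.7% to 43.7%), close to 31.7%. Fewer siFra-1 than siCTL peaks were found at 7 of the 9, more at SLC2A1 and none in either list at PGK1. When peaks of a list within 500 bp were merged, the share of wide peaks at the 9 genes was 40.9% (20.7% to 63.6%), below 50% where it had been above, and in the whole lists it was 52.2%.

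**Figure D2:**
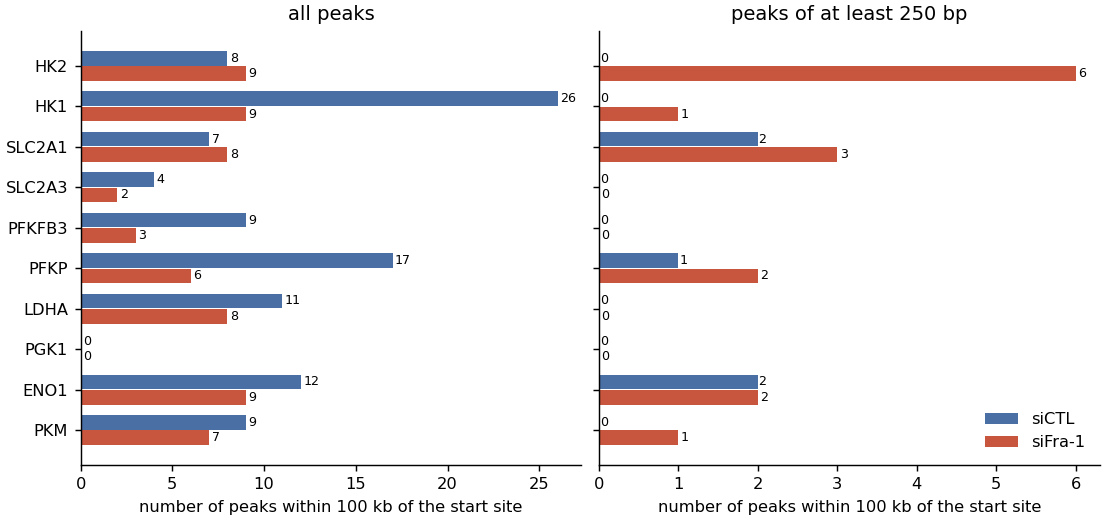
Number of p300/CBP peaks within 100 kb of each of the 10 start sites in siCTL (blue) and siFra-1 (red), for all peaks on the left and for peaks of at least 250 bp on the right, with bars from 0 and the count at each bar. HK2 goes from 0 to 6 wide peaks, and the other genes differ by at most 1.

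Both glucose transporters were examined. SLC2A1 (ENSG00000117394, chr1:43391024-43424564, minus strand) encodes GLUT1, the main basal transporter of many cells. It had 7 siCTL and 8 siFra-1 peaks, and 2 and 3 wide ones. A 400 bp siFra-1 peak in an intron 8.46 kb past the start (chr1:43415902-43416301) had no siCTL peak within 8.30 kb. The other wide sites, also intronic, were wide in both lists, with 600 bp in siCTL and 650 bp in siFra-1 at 17.7 kb, and 250 and 300 bp at 26.7 kb. SLC2A1 thus differed from HK2 in that wide siCTL peaks were already present. Within 50 kb it had 4 siCTL and 8 siFra-1 peaks, HK2 had 4 and 7, and PKM had 4 and 6. The 7 at HK2 include the 6 wide peaks for which it was chosen. In this window siFra-1 peaks were fewer at HK1, PFKFB3, PFKP and LDHA, and level at SLC2A3, PGK1 and ENO1. The share of all protein-coding genes was not counted at 50 kb.

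SLC2A3 (ENSG00000059804, chr12:8071826-8171603, minus strand) encodes GLUT3, a high-affinity transporter best known from neurons. It had 4 siCTL peaks, the widest of 150 bp, and 2 siFra-1 peaks of 100 bp, and none overlapped. The start of its canonical transcript lies 82.8 kb inside the annotated gene, and around that start the counts were 5 and 1. By either start, no wide peak was found.

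HK1 (ENSG00000156515, chr10:71029740-71161640, plus strand), the other hexokinase, had the most peaks of the 10 genes in siCTL, with 26 there and 9 in siFra-1. None of the siCTL peaks was wide. A single siFra-1 peak was, with 650 bp in an intron 90.8 kb past the start (chr10:71120252-71120901), and no siCTL peak lay within 7.55 kb of it. It was thus like HK2 in going from none to a wide intronic peak, but it was 1 peak where HK2 had 6, as at 9.56% of genes, which went from 0 to at least 1. The canonical HK1 start lies 48.9 kb downstream of the one used, which puts the wide peak 42.0 kb from it and gives 23 siCTL and 9 siFra-1 peaks. Merging of peaks within 500 bp turned the direction at HK1, with 5 wide merged siCTL regions and 1 in siFra-1, while HK2 stayed at 0 and 6. It also gave more wide regions in siCTL at ENO1 (4 and 2) and LDHA (1 and 0). At SLC2A1, PFKP and PKM siFra-1 still had more.

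**Figure D3:**
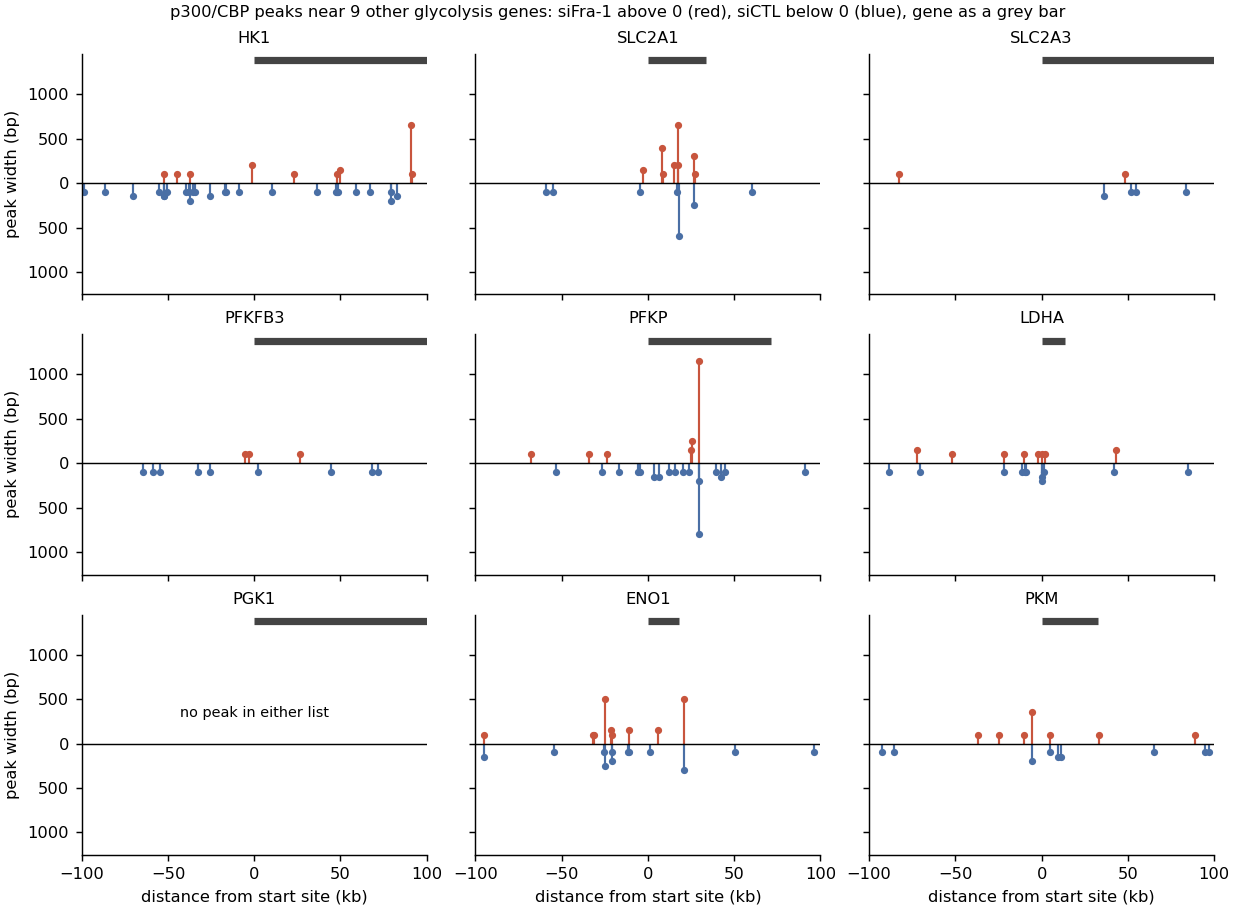
Position and width of p300/CBP peaks at the 9 other genes, with distance from the start site in kb on the x axis (positive in the direction of transcription) and width in bp on the y axis, siFra-1 above 0 in red and siCTL below 0 in blue, with the gene as a grey bar. HK1 has 1 wide siFra-1 peak near the right edge, SLC2A1 has 3 inside the gene, PFKP has the widest peaks, and PGK1 has no peak.

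Of the genes that act on fructose 6-phosphate, PFKP (ENSG00000067057, chr10:3108525-3179910, plus strand), the platelet-type phosphofructokinase, held the widest peaks of the 10 genes. They lay in an intron at 29.6 kb, where an 800 bp siCTL peak (chr10:3137502-3138301) and a 200 bp siCTL peak next to it were both overlapped by a siFra-1 peak of 1150 bp (chr10:3137602-3138751). A 250 bp siFra-1 peak at 25.5 kb (chr10:3133852-3134101) was 1.25 kb from the nearest siCTL peak. Over the whole window PFKP had 17 siCTL and 6 siFra-1 peaks, of which 1 and 2 were wide.

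PFKFB3 (ENSG00000170525, chr10:6186897-6296607, plus strand) makes and removes a regulatory sugar phosphate that activates phosphofructokinase. Its 9 siCTL and 3 siFra-1 peaks were all 100 bp wide and none was shared. Around its canonical start, 58.0 kb downstream, there were 10 and 6. No wide peak was found by either start.

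Among the later enzymes, PGK1 (ENSG00000102144, chrX:77166236-77384792, plus strand), the phosphoglycerate kinase, had no peak in either list, also within 250 kb of its start and around its canonical start 194 kb further on. No peak within 100 kb was found at 4.55% of protein-coding genes (4.56% by canonical starts), and none within 250 kb at 1.66%. On chromosome X, however, 50.7% of genes had none within 100 kb, and the other gene of the pathway there, PFKFB1, had none either. Absence from a list is not absence of signal. ENO1 (ENSG00000074800, chr1:8921059-8939249, minus strand), the main enolase, had 12 siCTL and 9 siFra-1 peaks and 2 wide ones in each list. They were at the same sites, where siCTL peaks of 300 and 250 bp were overlapped by siFra-1 peaks of 500 bp, 20.8 kb past the start (chr1:8918152-8918651) and 25.0 kb before it (chr1:8963952-8964451). Both lay between genes, and the first was nearest to the start of RERE, at 9.42 kb. ENO1 also shared the most peaks of the 10 genes, with 5 overlapped in each list.

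PKM (ENSG00000067225, chr15:72491370-72524160, minus strand), which encodes pyruvate kinase M1 and M2, had 9 siCTL and 7 siFra-1 peaks. Its only wide peak was a siFra-1 peak of 350 bp lying 5.82 kb before the start (chr15:72529802-72530151), over a siCTL peak of 200 bp. This is the site whose AP-1 motifs are printed with those of HK2. LDHA (ENSG00000134333, chr11:18416107-18429972, plus strand), which reduces pyruvate to lactate, had 11 siCTL and 8 siFra-1 peaks, with none wider than 200 bp. By the start sites used, it was the gene with peaks at its own start in both lists: siCTL peaks of 150 bp at 0.119 kb, in the untranslated part of an exon, and of 200 bp at 0.494 kb, and a siFra-1 peak of 100 bp at 0.244 kb. These did not overlap, but the 150 bp siCTL peak ended at chr11:18416301 and the siFra-1 peak began at chr11:18416302. The canonical start of HK1 also had peaks of both lists nearby. A siCTL peak at -0.801 kb and a siFra-1 peak at -0.852 kb from it overlapped. Within 1.5 kb of the start used, 4 siCTL and 2 siFra-1 peaks were found over all 10 genes.

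Joining overlapping peaks gave 15 sites with a wide peak at the 10 genes, and the siFra-1 peak was the wider at all 15. Of these, 6 had been picked with HK2, and 9 lay at the other genes. A site without a wide siCTL peak entered only through its siFra-1 peak, which then had to be the wider. This held for all 6 sites at HK2 and for 4 of the other 9. In the whole lists siFra-1 was the wider at 70.8% and siCTL at 24.0% of 7100 such sites. At 5 sites, all outside HK2, the siCTL peak was itself at least 250 bp wide. There siFra-1 exceeded the widest siCTL peak by 50 to 350 bp, and in the whole lists it was the wider at 42.5% of such sites. The 350 bp was at PFKP, where the siFra-1 peak also overlapped a siCTL peak of 200 bp. With peaks within 500 bp merged, the widest regions at PFKP were 1050 bp in siCTL and 1150 bp in siFra-1. At SLC2A1, however, they were 1100 bp in siCTL and 950 bp in siFra-1, and at ENO1 600 and 500 bp. The greater width in siFra-1 thus did not hold at SLC2A1 and ENO1 after merging. Without merging and with peaks of both lists present, siFra-1 was the wider at 6 of 6 sites outside HK2 and at 67.2% of sites in the whole lists. The PKM site among these 6 was fixed in the way just described. A further 6 sites had no siCTL overlap, 3 at HK2 and 3 at SLC2A1, PFKP and HK1, and 3 had a siCTL peak of 100 bp, all in HK2. At the remaining site, near PKM, the siCTL peak was 200 bp. Of the 15 sites, 12 were in an intron of the gene itself, 3 were between genes, and 0 were within 1.5 kb of a start site. The 12 include the 6 picked with HK2. The locations of all 7100 sites were not counted, so these numbers cannot be called particular to the 10 genes.

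**Figure D4:**
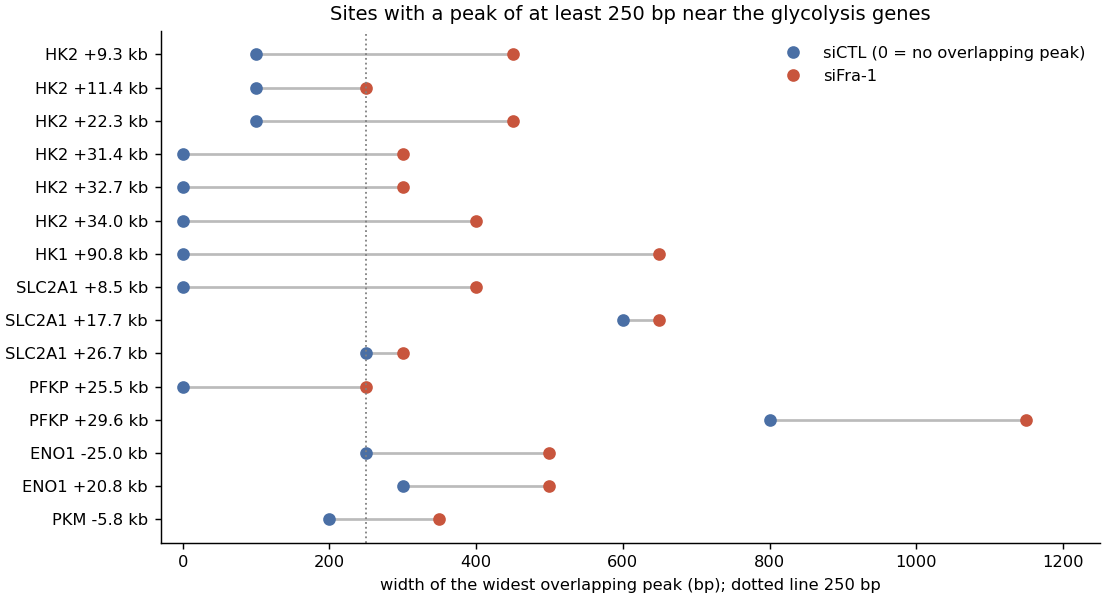
Width in bp of the widest siCTL (blue) and siFra-1 (red) peak at each of the 15 sites with a peak of at least 250 bp, named by gene and distance from the start site in kb, with 0 for no overlapping peak. The red point lies to the right of the blue one at all 15 sites, as it must where no siCTL peak is wide. Blue points at or past the dotted line at 250 bp are found at 5 sites, none of them in HK2.

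Wide peaks were shared more often than narrow ones. An overlap with siFra-1 was found for 17 of the 103 siCTL peaks (16.5%, 9.92% to 25.1%), beside 9.56% in the whole list. In the other direction it was found for 16 of the 61 siFra-1 peaks (26.2%, 15.8% to 39.1%), beside 19.1%. Without HK2 these shares were 14.7% and 25.0%. Peaks of 100 bp made up 74.7% of the siCTL list and 61.5% of the siFra-1 list at the 9 genes other than HK2, beside 82.8% and 69.6% around all protein-coding genes. All 5 wide siCTL peaks were overlapped, as 85.0% were in the whole list, and 9 of the 15 wide siFra-1 peaks were (6 of 9 without HK2), as 68.2% were. No wide siCTL partner was present for 4 of the 9 wide siFra-1 peaks outside HK2, and for 58.4% of those in the whole list, while at HK2 the selection fixed this.

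The AP-1 motif lay in the central 200 bases of 4 of the 15 wide sites (26.7%, 7.79% to 55.1%), against 24.1% of all 7100 wide sites and 3.36% of windows moved by 2 kb from them. In HK2 this was 1 of 6. Over the whole width of the peaks, 5 sites held 9 AP-1 motifs: 4 at the widest PFKP site, 2 near PKM, 1 in SLC2A1 and 2 in HK2. The core ACGTG lay in 4 central windows (26.7%), 2 of them in HK2, against 11.2% of all wide sites and 9.03% of moved windows. The TEAD motif lay in 3 (20.0%, against 29.5%), the RUNX motif in 2 (13.3%, against 11.5%), the SP/KLF box in 1 (6.67%, against 7.76%), and neither the E-box nor the cyclic AMP element TGACGTCA in any. E-box matches also count as ACGTG. The share of all wide sites lies inside the interval for AP-1, so that no difference was detectable with 15 sites.

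A list of 30 other genes of the pathway was then counted in the same way. It is not separate from the 10 genes, since the windows of HKDC1, LDHC and SLC2A14 also hold 35 of the 103 siCTL and 16 of the 61 siFra-1 peaks of the 10 genes. None went from no wide siCTL peak to several, which 0.739% of all protein-coding genes did. Wide peaks were more numerous in siFra-1 at 3, which were SLC16A3 with 1 in siCTL and 3 in siFra-1, and SLC16A1 and SLC2A2 with 0 and 1 each. The first pair encode lactate transporters of the plasma membrane, and SLC2A2 encodes the glucose transporter of liver and pancreas. Wide peaks were fewer in siFra-1 at 1, GAPDH, the dehydrogenase in the middle of the pathway, with 1 and 0. Over all protein-coding genes, 15.7% had more wide siFra-1 peaks and 7.28% had fewer. In all, the 30 genes had 8 wide siCTL and 11 wide siFra-1 peaks, a share of 57.9% (33.5% to 79.7%), which was 37.5% with peaks within 500 bp merged.

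For peaks of any width this list stood below the 10 genes, with 271 siCTL and 96 siFra-1 peaks, a share of 26.2% (21.7% to 31.0%) against 37.2% (29.8% to 45.1%), and 31.7% over all protein-coding genes. At 27 of the 30 genes there were fewer siFra-1 peaks, and at 1, the glucose 6-phosphate isomerase GPI, there were more, with 8 and 9. Over all protein-coding genes, 81.9% had fewer and 7.33% had more. At 7 of the 30 there were siCTL peaks and no siFra-1 peak, as at 14.4% of all protein-coding genes. Among these were the liver phosphofructokinase PFKL, with 12 siCTL peaks, the liver and red cell pyruvate kinase PKLR, with 11, and the hexokinase HK3, with 10, all 3 named after their values were seen. The higher share of the 10 genes includes HK2, which was picked for its peaks, and without it the share was 35.4%.

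**Figure D5:**
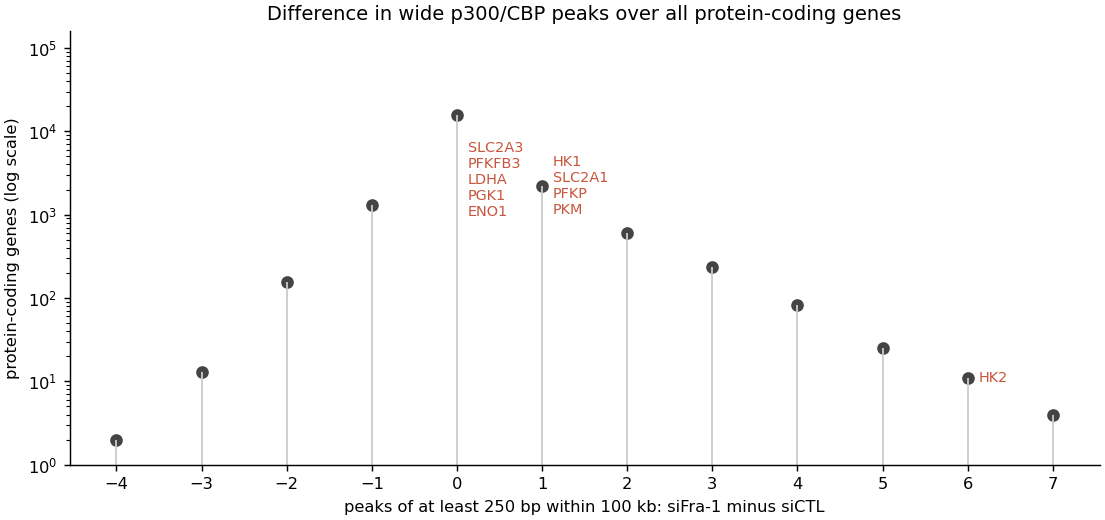
Number of protein-coding genes, on a log scale, by the difference in wide p300/CBP peaks within 100 kb (siFra-1 minus siCTL), with the 10 glycolysis genes named at their value. HK2 stands at 6 among 11 genes, 4 genes stand at 7, and the other 9 glycolysis genes are at 0 or 1, as are 15526 and 2204 genes.

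The values just inside and just outside the limits of the selection were as follows. At HK2 the outermost peaks counted were those at -93.2 and -92.8 kb, and the first left out was a siCTL peak of 100 bp at 107 kb. At ENO1 a siFra-1 peak of 300 bp, over a siCTL peak of 150 bp, lay 107 kb upstream and was not counted, whereas the wide HK1 peak at 90.8 kb was. For width, the HK2 peak at 11.4 kb was exactly 250 bp wide, and the widest siCTL peak at HK2, with 200 bp, was the next width below. With wide peaks taken as at least 200 bp, HK2 therefore had 1 siCTL peak and did not go from none to several.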

How the data were processed

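Members and gene lists were chosen with earlier results of these data known. Going by the methods and by the steps recorded in the list names, the authors aligned reads uniquely to hg19 with BWA-backtrack (the submitters' processing notes name Bowtie2), binned them at 50 bp with PASHA, scaled them, subtracted background, and called peaks in the Integrated Genome Browser with threshold 25, maximum gap 50 bp and minimum run 50 bp. A step parameter of unstated meaning differed between the libraries. Scaling and a fixed threshold affect the number and width of peaks directly. The deposited lists hold chromosome, start and end, with no count, signal or score. Every start and end lies 1 above a multiple of 50. Starts were raised by 1 for printing and may be 1 bp off.

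Peaks were assigned to start sites, taken as the 5′ end of the gene in GENCODE release 44 lifted to GRCh37, with the canonical transcript start as an alternative. Peaks sharing at least 1 bp were called overlapping. Shares are the percent of the peaks of both lists that come from siFra-1, with each peak counted once in a group. Sequences were read from the GRCh37 genome, and motifs were matched as exact words on both strands. Python 3.11.15, numpy 2.4.6, pandas 2.3.3 and scipy 1.17.1 were used, and overlap, window and motif functions were tested on simulated data. All 10 genes were named, with up to 3 widest peaks of either list at each and every wide HK2 peak. Of the 30 other pathway genes, those with the largest rise or fall in wide peaks were named. Alternatives were other widths, windows, start sites, sharing rules and motif settings, merging within 500 bp, and peaks nearest to the gene only.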

Additional observations from a re-analysis of the deposited data

How the results depend on the processing

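No paired analysis was possible because each condition has 1 library and no replicate number. Of 76 recomputed values over 10 results, 67 stayed within the interval or within 1.5 times the original count, 8 moved and 1 turned direction. The 67 include 7 for the HK2 share of wide peaks, a value that the choice of HK2 had set. Wide intervals also make it easy for a value to stay inside. The share of HK2 peaks from siFra-1 was 52.9% for all peaks, 87.5% at 150 bp or more and 100% at 250 bp or more. For the other 9 genes it was 35.4%, 45.5% and 64.3%, the last on the other side of 50%. With wide peaks defined as at least 200 bp, the other genes with more wide siFra-1 peaks numbered 1 in place of 4, and genes going from none to several numbered 0 in place of 1, as HK2 had 1 siCTL peak of 200 bp. The share of siCTL peaks overlapped was 16.5% for all peaks, 28.0% at 150 bp or more, 100% at 250 bp or more, and 27.2% when peaks within 200 bp of each other counted as shared. In these, the change comes from which peaks are kept or counted. Merging peaks within 500 bp gave 40.9% in place of 64.3% for wide peaks at the 9 genes (9 of 22) and 37.5% in place of 57.9% for the 30 pathway genes, both inside the wide original intervals, and the cause was not tested. Unknown depth, 1 library per condition and the lack of peak heights limit all of these values: a peak missing from a list may lie just under the threshold, and few wide peaks at each gene leave wide intervals.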
